A study of Danio rerio with 8 samples.

Results

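The genes described here drive and police cell division: cyclins, cyclin-dependent kinases, the phosphatase and kinases that switch them, polo and aurora kinases, the spindle and DNA damage checkpoints, the anaphase-promoting complex and the proteins of the centromere. They were followed in zebrafish (Danio rerio) embryos injected with a control morpholino or with one against ddx3xb, an antisense oligomer aimed at the RNA of a DEAD-box helicase, and collected 2 or 6 hours post fertilization (hpf). Members were taken by gene symbol, either by a prefix (ccna, ccnb, ccnd, ccne, cdc25, bub1, aurk, plk, chek, anapc, cenp) or by name (bub3, mad2l1, mad1l1, ttk, cdk1, cdk2, cdk4, cdk6, cdc20, fzr1, wee1, pkmyt1), and had to reach 1 RPKM (reads scaled by gene length and library depth) in at least 1 of the 4 deposited tables. Of 66 gene identifiers that met the symbol rule, 57 stood in the tables and 52 reached 1 RPKM, out of 16217 genes of the whole series that did so. The cyclin genes CCNE1, CCNE2 and CCND1, the checkpoint kinase gene CHEK1, the complex members CDC20, ANAPC2, ANAPC11 and ANAPC15, and CCNB1IP1 carry identifiers outside the tables and were not analysed here. The 5 that stayed under 1 RPKM were cdc25d, ccndx, both PLK2 identifiers and 1 of the 2 CCND2 identifiers. The members nearest the limit from above were cenpu, with a highest value of 4.35 RPKM, and CENPV with 4.74 RPKM, whereas cdc25d peaked at 0.900 RPKM.

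The 4 groups were control embryos at 2 hpf, knockdown embryos at 2 hpf, control embryos at 6 hpf and knockdown embryos at 6 hpf, each of 2 libraries of poly(A) RNA from whole embryos. The titles call the controls morpholino controls and the genotype labels call them wild type. The genotype label of the second knockdown library at 6 hpf reads ddx4xb, where its title reads ddx3xb. The labels name no strain, morpholino dose or number of embryos. With poly(A) libraries, a low value at either age was not told apart from RNA with a short tail or none. Each table gives 1 value per gene for a group, so the spread between libraries is unknown, overlap between groups cannot be judged, and no difference below has an error or a p-value. The measure of a difference is the log2 ratio of (RPKM + 1), which comes out too small for weakly expressed genes, and a gene is said to have risen or fallen only where this ratio was 2-fold or more. Where values are given in pairs for an age, control comes first and knockdown second.

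The earliest divisions of the zebrafish embryo are fast, nearly synchronous, and run on RNA and protein that the mother placed in the egg. A cyclin bound to a cyclin-dependent kinase pushes the cell into replication or mitosis, WEE1 and PKMYT1 hold the kinase back by phosphorylation, and CDC25 releases it. The spindle checkpoint then holds the anaphase-promoting complex, a ubiquitin ligase that marks cyclins for destruction, until every chromosome is attached at its centromere. Around the mid-blastula transition the cycles lengthen, gap phases appear, and the embryo begins to replace the maternal transcripts with its own. The label of mitotic genes fits most members, but D-type cyclins, CDK4 and CDK6 act before replication. AURKAIP1, a mitochondrial ribosome protein, and ccndbp1, known in human as a cyclin D binding protein, are named for an aurora kinase or a cyclin without being one.

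Facts of the tables that touch these genes are few. The target ddx3xb had 274 RPKM (control) against 251 RPKM (knockdown) at 2 hpf, then 141 against 322 RPKM at 6 hpf. It was thus not lower but past 2-fold higher in the knockdown at 6 hpf, and the reason was not tested. These values do not check the labels, since morpholinos act on translation or splicing and need not lower the RNA of a target. By steps in the low values, the 2 libraries of control at 2 hpf were the deepest and the other 6 had between 0.490 and 0.848 of the depth of the deepest. The worth of 1 read was taken from 248 weakly expressed genes at 2 hpf and 282 at 6 hpf. At its 90th percentile 5 RPKM stood for 69.8 and 55.9 reads in control and knockdown at 2 hpf, and for 46.7 and 40.3 reads at 6 hpf. These genes were under 0.3 RPKM, which leaves out genes where 1 read is worth more. In the knockdown table at 2 hpf 45.1% of all RPKM fell on 5 features that exceed 5000 RPKM, which hold at most 2.95% of any other table. This is a share of summed RPKM and not of reads. The sum was 731302 RPKM in that table and 431798 RPKM in control at 2 hpf. For the 16217 genes the log2 ratio of knockdown to control was centred (median) on -0.12 at 2 hpf and 0.20 at 6 hpf, and 0 and -0.04 once the tables were rescaled to a median ratio of 1 over the 10479 genes that reach 1 RPKM in every table. Rescaled ratios are given in parentheses or named as such. For ddx3xb the log2 ratio at 6 hpf was 1.18 (0.87), short of 2-fold after rescaling.

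Maternal and oocyte transcripts (9 genes, among them buc, GDF9 and DAZL) summed to 771 and 916 RPKM in control and knockdown at 2 hpf. Only org was past 2-fold there (181 and 370 RPKM), beside 0.506% of all genes higher. At that age 5 of the 9 had ratios below 0 (3 after rescaling). At 6 hpf the 9 summed to 125 and 251 RPKM. Then 4 of the 9 were past 2-fold higher in the knockdown (3 after rescaling, without ZAR1), beside 8.72% of all genes compared, and none lower. Genes of the gastrula (5 found) summed to 1.34 and 0.883 RPKM at 2 hpf, then 416 and 293 RPKM at 6 hpf. At 6 hpf 2 of the 5 had fallen in the knockdown, eve1 (85.5 and 8.93 RPKM) and msgn1 (56.4 and 4.64 RPKM). The genes noto, tbx16 and GSC stayed under 2-fold. Enveloping layer markers, of the embryo's outer cell sheet, summed to 0.532 and 1.56 RPKM at 2 hpf, where agr1 and cyt1l were listed at 0 in both tables, and to 3566 and 1305 RPKM at 6 hpf, where 7 of 9 had fallen in the knockdown, beside 7.87% of all genes lower. Of the enveloping layer list, grhl3 went the other way at 6 hpf, at 64.2 and 121 RPKM, under 2-fold. Erythroid and muscle markers, absent from embryos of these ages, had no value above 0.0704 RPKM. These lists moved at 6 hpf together with the differences described below, and their part in them was not tested. In whole embryos fewer cells of a type and less RNA per cell cannot be told apart.

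Cyclin transcripts of the A and B types held most of the summed RPKM of the members at 2 hpf. Division genes that are not members, such as TPX2 with 485 RPKM in control at 2 hpf, are outside this share. In control embryos at 2 hpf these 5 genes held 75.5% of the summed RPKM of the 52 members. CCNA2 (ENSDARG00000011094), the A-type cyclin of dividing cells, was the 14th most abundant of the 33737 identifiers, with 1513 RPKM (control) against 1416 RPKM (knockdown) at 2 hpf, then 573 against 1116 RPKM at 6 hpf. CCNA1 (ENSDARG00000043236), an A-type cyclin known in mouse for the germ line, had 1241 and 1215 RPKM at 2 hpf, then 138 and 380 RPKM at 6 hpf. Both were near level between the arms at 2 hpf and higher in the knockdown at 6 hpf.

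CCNB1 (ENSDARG00000051923), a cyclin whose pairing with CDK1 starts mitosis, had 1084 and 1098 RPKM at 2 hpf, then 338 and 393 RPKM at 6 hpf. CCNB2 (ENSDARG00000036180), its close relative, had 1125 and 1037 RPKM at 2 hpf, then 137 and 232 RPKM at 6 hpf. The fifth gene, ccnb3 (ENSDARG00000034855), a B-type cyclin that also works in anaphase in other animals, ran the other way in time, with 3.68 and 3.01 RPKM at 2 hpf, then 67.6 and 42.5 RPKM at 6 hpf. The level in poly(A) RNA thus separated 4 maternal cyclins at 1037 RPKM or more from 1 that was low at 2 hpf.

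**Figure D1:**
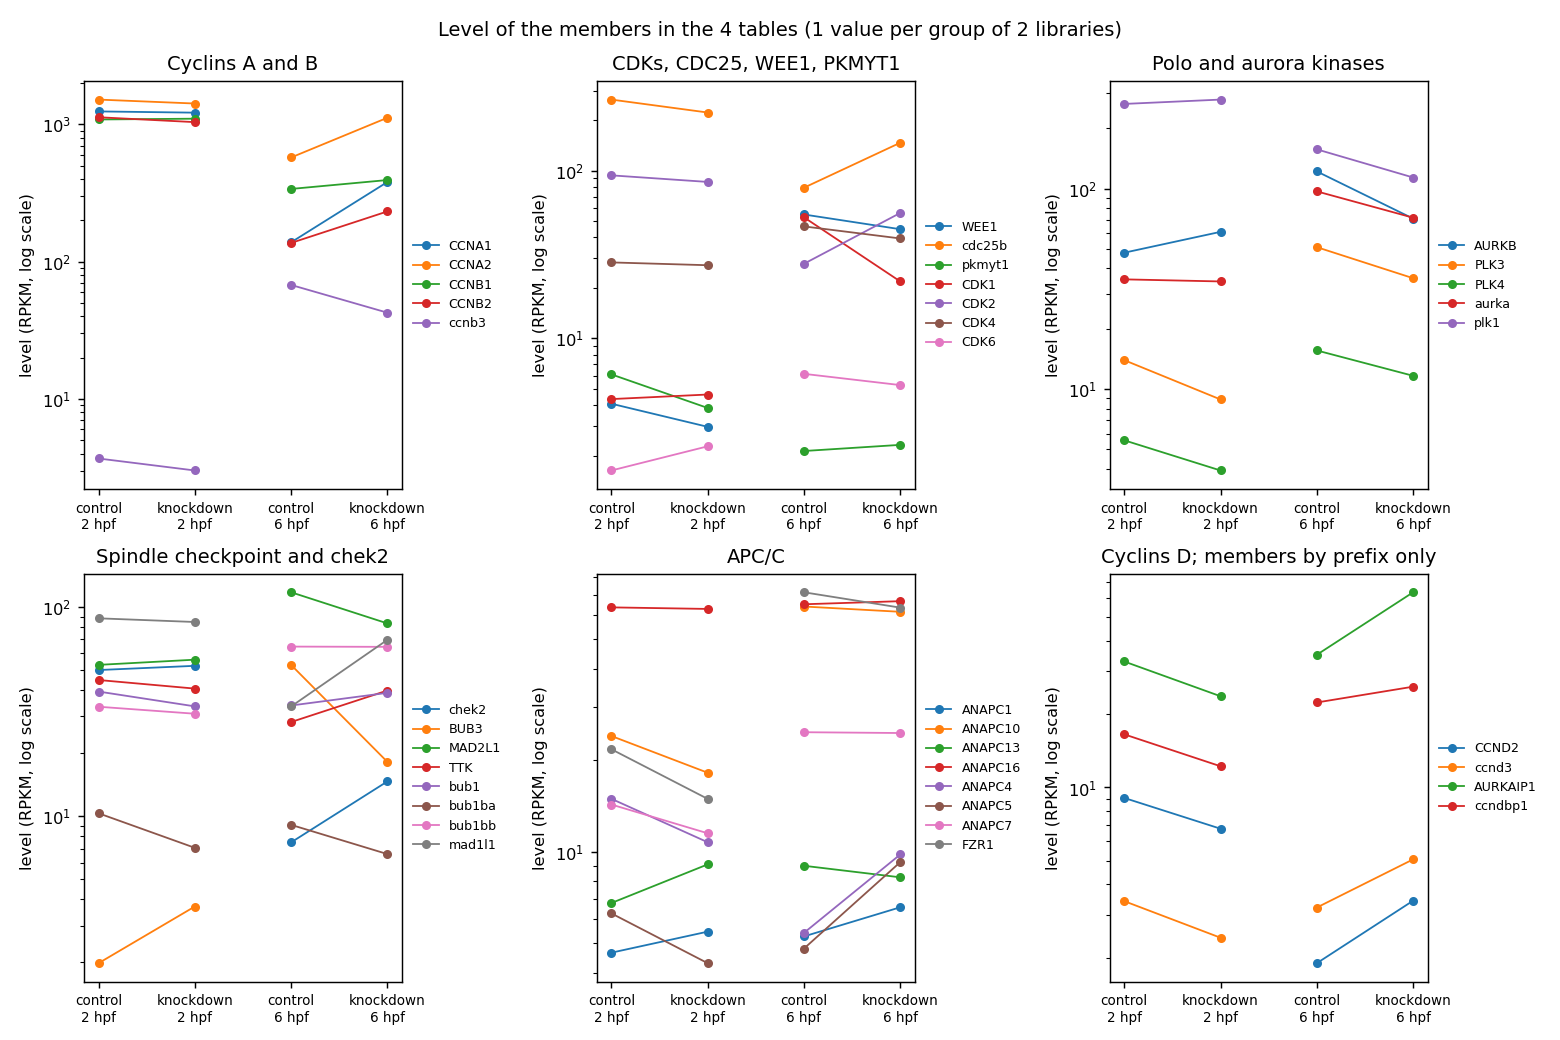
Levels in RPKM (log scale) of 37 members in the 4 tables, by role, with 1 point per group of 2 libraries, lines joining control and knockdown of the same age, and no error bars because each group has 1 value. The A and B cyclins lie at 1037 RPKM or more at 2 hpf except ccnb3, and CDK1 and BUB3 lie lower in knockdown than in control at 6 hpf.

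Of these cyclins CCNA1 alone was past 2-fold in the knockdown comparison at 6 hpf, with a log2 ratio of 1.45 (1.14 after rescaling). CCNA2 missed the limit at 0.96 (0.64), CCNB2 had 0.76 (0.44), and ccnb3 had -0.66 (-0.97). CCNB1 was near level, at 0.21, with a sign that turned after rescaling (-0.10). At 2 hpf the 5 log2 ratios lay between -0.22 and 0.02, and only ccnb3 kept its sign (negative) under both rescaling and quantile normalization.

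The sum of the 5 transcripts was 4967 RPKM in control and 4770 RPKM in knockdown at 2 hpf, and 1254 and 2164 RPKM at 6 hpf. The makeup of that sum differed as well. CCNA1 made up 24.98% and 25.5% of it at 2 hpf, and 11.02% and 17.6% at 6 hpf. CCNA2 made up 30.5% and 29.7% at 2 hpf and 45.7% and 51.6% at 6 hpf, so that the A types together held a larger share in the knockdown at 6 hpf. CCNB1 made up 21.8% and 23.0% at 2 hpf and 27.0% and 18.1% at 6 hpf, whereas the share of ccnb3 at 6 hpf was 5.39% in control and 1.96% in knockdown. These shares are ratios within a table and do not depend on a linear rescaling of it.

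**Figure D2:**
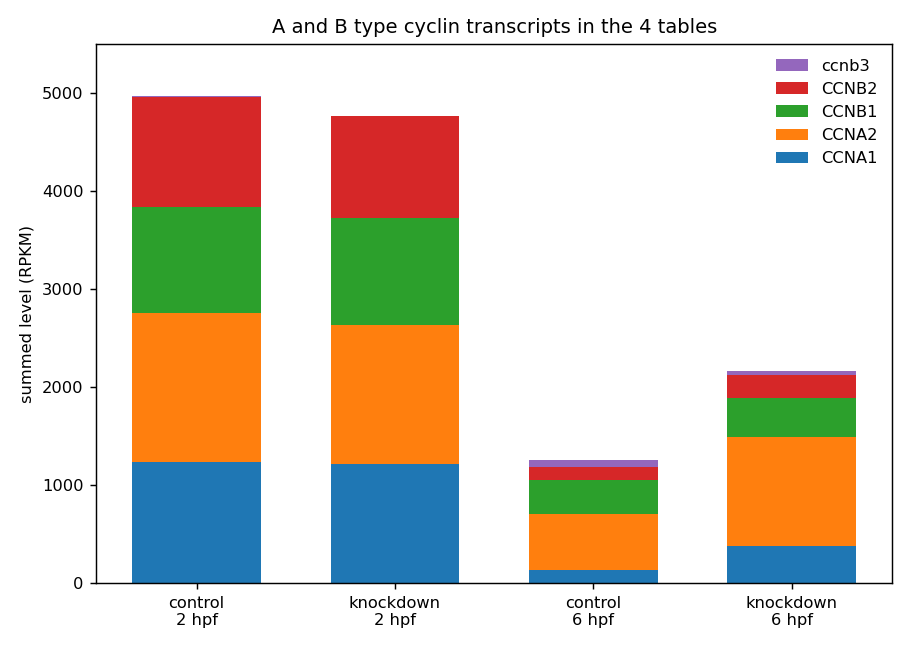
Summed level in RPKM of the A and B type cyclin transcripts in each table, stacked by gene, 1 value per group of 2 libraries and no error bars. The sum is 4967 and 4770 RPKM at 2 hpf and 1254 and 2164 RPKM in control and knockdown at 6 hpf.

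The D-type cyclins, which bind CDK4 and CDK6 at the start of the cycle, were weak throughout. CCND2 (ENSDARG00000051748) had 9.06 and 6.77 RPKM at 2 hpf, then 1.898 and 3.43 RPKM at 6 hpf, and ccnd3 had 3.41, 2.41, 3.21 and 5.07 RPKM in the same order. Neither passed 2-fold between the arms, with log2 ratios at 6 hpf of 0.61 and 0.53, beside 16.6% of all genes past 2-fold at that age. The second CCND2 identifier did not exceed 0.0396 RPKM and ccndx did not exceed 0.0706 RPKM.

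The partner kinases split by gene. CDK1 (ENSDARG00000087554), the kinase of mitotic entry, had 4.34 and 4.62 RPKM at 2 hpf, then 52.6 and 21.8 RPKM at 6 hpf. It was low in poly(A) RNA at 2 hpf in both arms, when CCNB1 and CCNB2 stood at 1037 RPKM or more. At 6 hpf CDK1 was past 2-fold lower in knockdown than in control, with a log2 ratio of -1.23 (-1.53 after rescaling). CDK2 (ENSDARG00000026577), which works with cyclins E and A in replication, had 93.7 and 85.6 RPKM at 2 hpf, then 27.8 and 55.9 RPKM at 6 hpf. Its log2 ratio of 0.98 at 6 hpf lay just short of 2-fold as deposited, and was 0.67 after rescaling and 0.86 with quantile normalization. With a pseudocount of 0.1 RPKM it was just past 2-fold (1.004), and with 5 RPKM it was 0.89. The kinases of the D-type cyclins differed less, with CDK4 at 46.5 and 39.4 RPKM and CDK6 at 6.14 and 5.26 RPKM at 6 hpf.

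The genes of the switch on these kinases also differed in the age at which their poly(A) RNA was high. The phosphatase gene cdc25b had 265 and 222 RPKM at 2 hpf, then 79.1 and 147 RPKM at 6 hpf. Its log2 ratio in the later comparison was 0.88 (0.57 after rescaling). WEE1, the opposing kinase gene, was low at 2 hpf with 4.07 and 2.97 RPKM and reached 54.7 and 44.7 RPKM at 6 hpf (log2 ratio -0.29). Its relative pkmyt1 had 6.10, 3.84, 2.13 and 2.32 RPKM in the order of control and knockdown at 2 hpf and control and knockdown at 6 hpf. None of these passed 2-fold between the arms, beside 1.45% of all genes at 2 hpf and 16.6% at 6 hpf. The related cdc25d, not a member, was listed at 0.553, 0.0669, 0.900 and 0.472 RPKM in that order.

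All 5 polo and aurora kinases had a lower value in the knockdown at 6 hpf under every scaling run. Of all genes, 38.9% were lower as deposited and 8566 of 16217 after rescaling. None of the 5 was past 2-fold as deposited, beside 16.6% of all genes in both directions together. AURKB (ENSDARG00000037640), the kinase of the chromosomal passenger complex that corrects faulty attachments, had 48.0 and 60.9 RPKM at 2 hpf, then 122 and 71.0 RPKM at 6 hpf. Its log2 ratio at 6 hpf of -0.77 became -1.08 after rescaling, past 2-fold. The centrosomal kinase gene aurka had 35.3 and 34.5 RPKM at 2 hpf, then 97.0 and 71.7 RPKM at 6 hpf. The gene plk1, for a kinase of spindle assembly and cytokinesis, had the highest level of the 5 at 2 hpf, at 265 and 279 RPKM. At 6 hpf it had 157 and 114 RPKM. PLK4, which starts centriole duplication, had 5.55 and 3.92 RPKM at 2 hpf, then 15.6 and 11.7 RPKM at 6 hpf, and PLK3 had 13.95, 8.88, 51.1 and 35.8 RPKM. The log2 ratios of the 5 at 6 hpf had a median of -0.46, beside 0.20 over all genes compared. After rescaling the medians were -0.78 and -0.04.

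The spindle checkpoint genes went in both directions. BUB3 (ENSDARG00000075883), which docks the BUB1 kinase at the kinetochore, had 1.98 and 3.70 RPKM at 2 hpf, then 52.8 and 18.2 RPKM at 6 hpf. It was low at 2 hpf in both arms. At 6 hpf BUB3 was past 2-fold lower in knockdown than in control, with a log2 ratio of -1.49. Its counterpart mad1l1 (ENSDARG00000033852), which brings MAD2 to unattached kinetochores, had 88.2 and 84.7 RPKM at 2 hpf, then 33.5 and 69.7 RPKM at 6 hpf. Its log2 ratio of 1.04 at 6 hpf was only just past 2-fold, and rescaling (0.73), quantile normalization (0.91) or a pseudocount of 5 RPKM (0.96) took it below. MAD2L1, which codes for the MAD2 inhibitor of the anaphase-promoting complex, had 52.9 and 56.0 RPKM at 2 hpf, then 117 and 83.4 RPKM at 6 hpf. The binding partners MAD1 and MAD2 thus had log2 ratios of opposite sign at 6 hpf, 1.04 and -0.49.

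None of the remaining checkpoint genes passed 2-fold between the arms. Of all genes, 1.45% were past 2-fold at 2 hpf and 16.6% at 6 hpf, so few or none would be awaited in a group this small. TTK, the kinase that starts the signal, had 28.2 and 39.9 RPKM at 6 hpf and bub1 had 33.8 and 38.9 RPKM. The copies bub1bb and bub1ba, which code for relatives of BUB1 that bind CDC20, had 64.6 and 64.5 RPKM and 9.09 and 6.59 RPKM, and reads shared between the copies could not be told apart. The DNA damage kinase gene chek2 was also higher at the earlier age, with 49.9 and 52.3 RPKM at 2 hpf, then 7.496 and 14.7 RPKM at 6 hpf (log2 ratio 0.88, and 0.59 after rescaling).

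The 8 members of the anaphase-promoting complex gave no ratio past 2-fold between the arms at either age. Of all genes, 1.45% were past 2-fold at 2 hpf and 16.6% at 6 hpf, so few or none would be awaited among 8. The scaffold genes ANAPC4 and ANAPC5 had the highest log2 ratios at 6 hpf, 0.75 and 0.82, with 5.41 and 9.79 RPKM for ANAPC4 and 4.80 and 9.24 RPKM for ANAPC5. ANAPC16, a small subunit, varied least of the 8, with 63.6, 62.8, 65.1 and 66.6 RPKM in the 4 tables. FZR1, an activator that keeps the complex working after mitosis, had 21.7 and 14.9 RPKM at 2 hpf, then 71.3 and 63.4 RPKM at 6 hpf. ANAPC10, which helps to hold substrates, took a like course with 24.0, 18.2, 64.0 and 61.5 RPKM. The 8 log2 ratios of the complex at 6 hpf were centred on 0.01, or -0.29 after rescaling.

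Of the 15 centromere genes, cenpe (ENSDARG00000063385) was set apart. It codes for a kinesin motor that moves chromosomes to the middle of the spindle, and it had 3.30 and 14.2 RPKM in control and knockdown at 2 hpf and 29.3 and 7.54 RPKM at 6 hpf. It rose in the knockdown comparison at 2 hpf (log2 ratio 1.82) and fell at 6 hpf (-1.83), and in knockdown embryos it was lower at 6 hpf than at 2 hpf while in control embryos it was higher. Both ratios stayed past 2-fold under each pseudocount and scaling run. The subunit gene cenpu (ENSDARG00000088924), part of the inner kinetochore, fell at 2 hpf from 4.35 RPKM in control to 1.28 RPKM in knockdown (log2 ratio -1.23, and -0.57 with a pseudocount of 5 RPKM), and at 6 hpf had 2.84 and 2.64 RPKM.

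Inner kinetochore genes of shared subcomplexes had log2 ratios of both signs at 6 hpf, except the pair CENPL and cenpn as deposited. In the set of CENP-H, CENP-I and CENP-K, cenph had 20.9 and 35.5 RPKM in control and knockdown, CENPI had 40.1 and 37.8 RPKM, and cenpk had 17.8 and 12.01 RPKM. Among the histone-fold subunits, cenpw had 73.3 and 97.6 RPKM, cenpt had 19.3 and 16.4 RPKM, CENPS had 24.5 and 16.5 RPKM and CENPX had 8.79 and 4.86 RPKM. The pair CENPL and cenpn had 15.8 and 17.8 RPKM and 24.9 and 31.7 RPKM, with log2 ratios of 0.16 and 0.34 (-0.14 and 0.03 after rescaling). In the set with cenpu, CENPP had 9.72 and 5.90 RPKM and cenpo had 4.40 and 6.66 RPKM. CENPF, a large protein of the outer kinetochore, had 37.8 and 32.6 RPKM, and CENPV had 4.51 and 4.74 RPKM. None of these was past 2-fold, beside 16.6% of all genes in both directions together. The log2 ratios of the 15 were centred on -0.08 at 6 hpf and -0.12 at 2 hpf (-0.39 and 0.08 after rescaling). After rescaling 11 of the 15 lay below 0 at 6 hpf, beside 8566 of 16217 genes.

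Of the members named for an aurora kinase or a cyclin without being one, AURKAIP1 had 32.9 and 23.7 RPKM at 2 hpf, then 35.1 and 63.4 RPKM at 6 hpf (log2 ratio 0.83 at 6 hpf). The other, ccndbp1, had 16.5, 12.2, 22.3 and 25.9 RPKM.

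**Figure D3:**
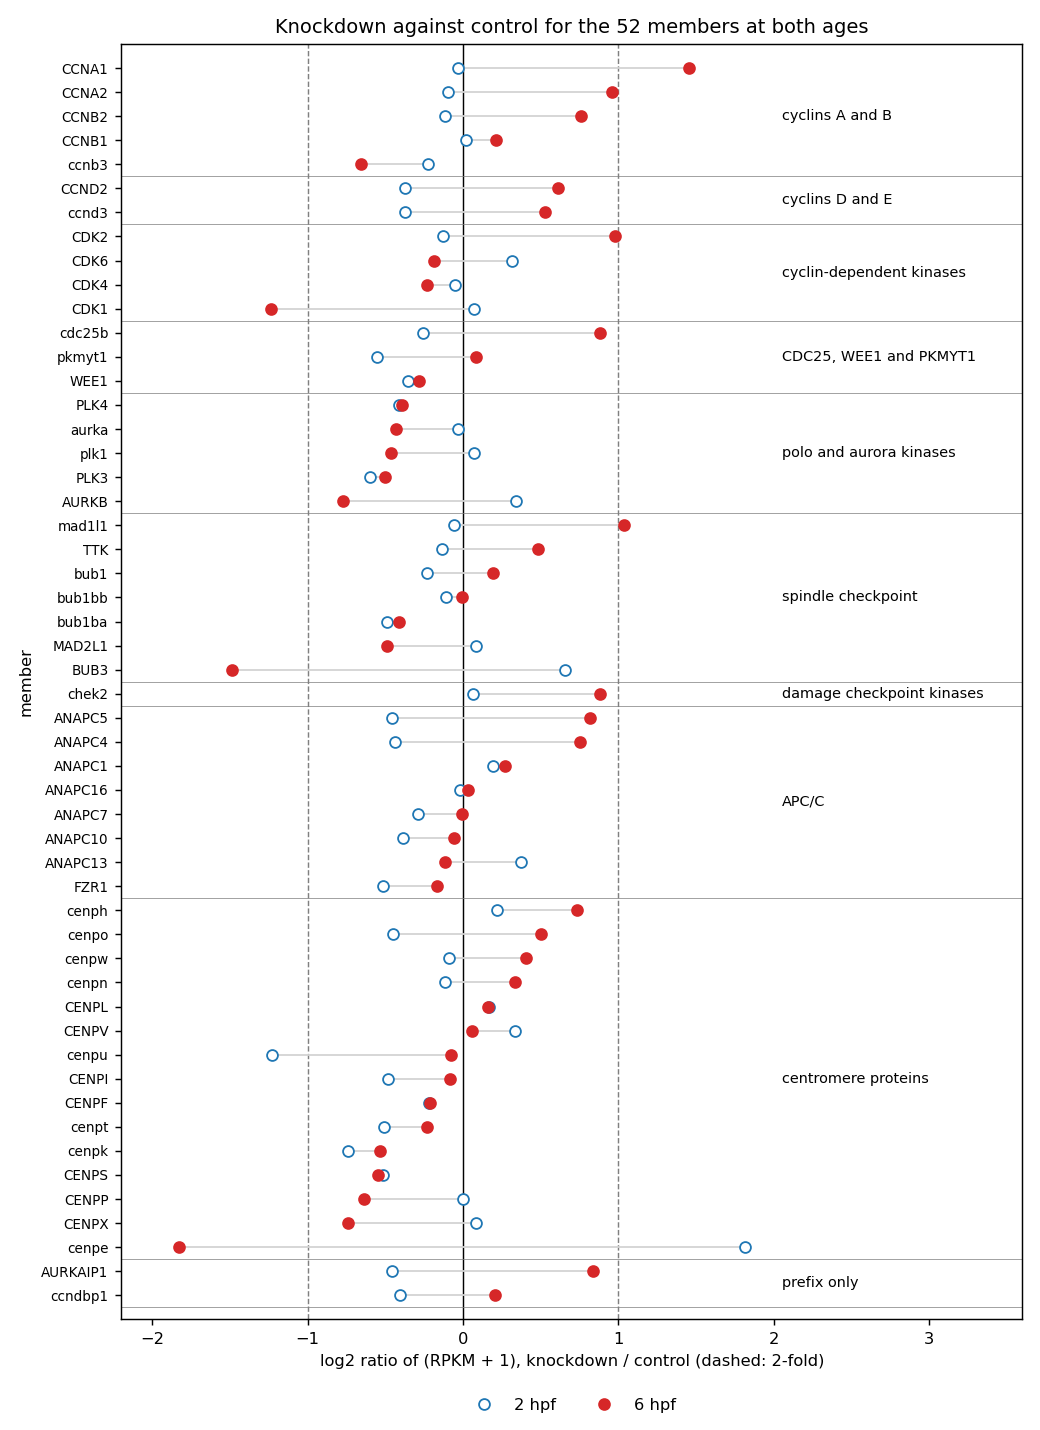
Log2 ratio of (RPKM + 1), knockdown to control, for all 52 members by role, with open points for 2 hpf, filled points for 6 hpf and dashed lines at 2-fold; each ratio compares 2 values and has no error bar. At 6 hpf CCNA1 and mad1l1 lie above the upper line and CDK1, BUB3 and cenpe below the lower line; cenpe is the only member past both lines, on opposite sides at the 2 ages.

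Over the 52 members at 2 hpf, 1 was past 2-fold higher (cenpe), beside 0.506% of all genes compared, and 1 lower (cenpu), beside 0.943%. The members had 15 log2 ratios above 0 and 37 below, beside 27.1% above 0 for all genes, and both medians were -0.12. Rescaling by the median ratio gave 28 above and 24 below, with a median of 0.073. For all genes it gave 7645 above 0, 8098 below and a median of 0.

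At 6 hpf 2 members had risen (CCNA1 and mad1l1), which is 3.85% of the members beside 8.72% of all genes, and 3 had fallen (CDK1, BUB3 and cenpe), which is 5.77% beside 7.87%. Shares this small rest on single genes. The median over the members was -0.01 with 25 above 0 and 27 below, beside 0.20 and 61% above 0 for all genes. After rescaling 1 had risen and 4 had fallen, against 591 rises and 1883 falls among the 16217 genes (1414 and 1277 as deposited). The rescaled members had 18 ratios above 0, 34 below and a median of -0.31. All genes had 7646 above 0, 8566 below and a median of -0.04.

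**Figure D4:**
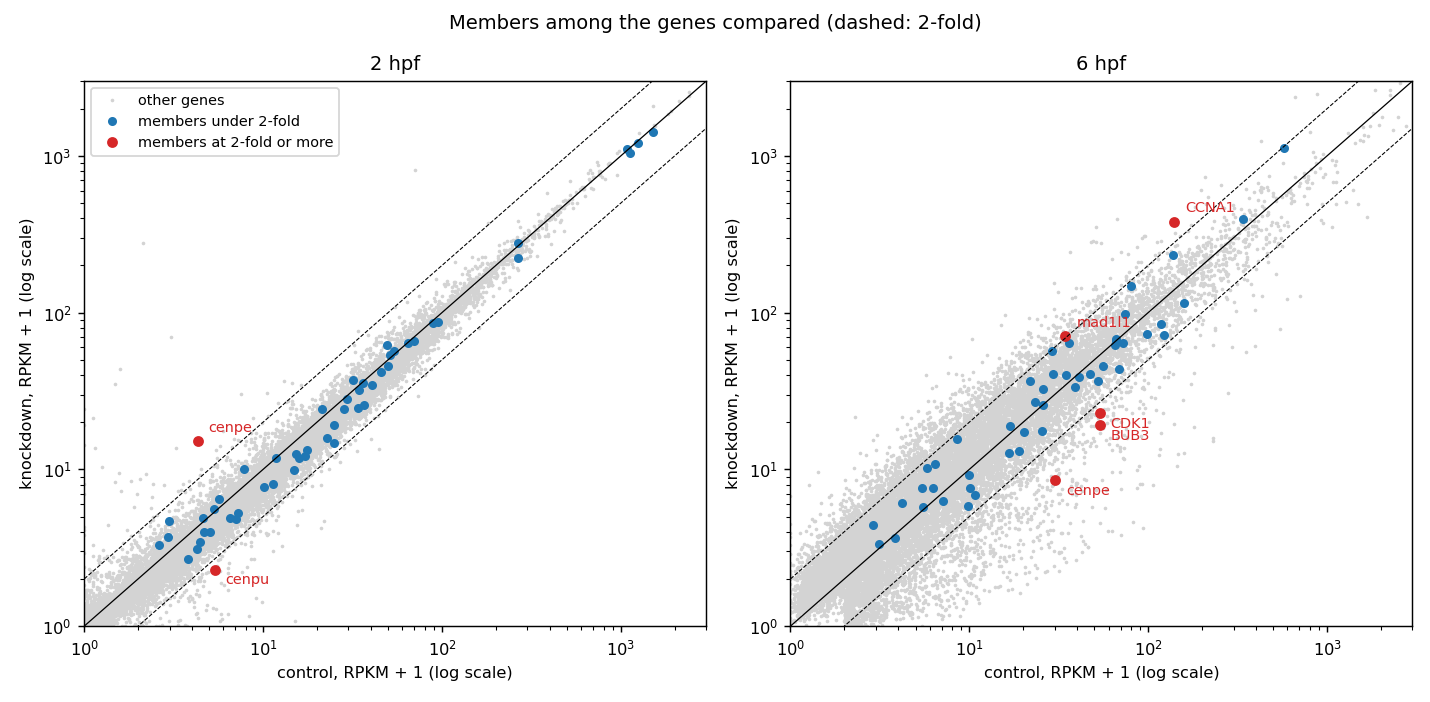
Control against knockdown RPKM + 1 (both axes log scale) at 2 hpf and at 6 hpf for all genes compared (grey) and the members (coloured), 1 value per gene and group; the solid line marks equal values and the dashed lines 2-fold. The members past 2-fold are named, 2 at 2 hpf and 5 at 6 hpf; points outside the range shown are cropped.

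The members also differed in their own course from 2 to 6 hpf. In control embryos 16 rose, beside 27.5% of all genes, and 11 fell, beside 28%. The rises were led by BUB3 (log2 ratio 4.17), ccnb3 (3.87), WEE1 (3.46), CDK1 (3.33), cenpe (2.82) and CENPS (2.74), and the falls by CCNA1 (-3.16), CCNB2 (-3.03), chek2 (-2.58), CCND2 (-1.80) and cdc25b (-1.73). After rescaling 21 rose and 7 fell, beside 5745 and 3040 of the 16217 genes. In knockdown embryos 16 rose, beside 25.5%, and 5 fell, beside 13%, namely CCNA1 (-1.67), CCNB1 (-1.48), CCNB2 (-2.15), chek2 (-1.77) and plk1 (-1.28). With quantile normalization the counts in knockdown embryos were 11 and 8, beside 3216 and 3214 of the 16217 genes.

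Both courses share a table with the comparison at 6 hpf, so their values are set side by side and not related to it. CCNA2 had a log2 ratio over time of -1.40 in control (-0.84 after rescaling) and -0.34 in knockdown embryos (-0.35). For CDK2 it was -1.72 and -0.61, for cdc25b -1.73 and -0.59, and for mad1l1 -1.37 and -0.28. CCNB1 had -1.68 and -1.48, or -1.12 and -1.49 after rescaling, so that which arm had the larger fall depended on the scaling. For AURKB the log2 ratio over time was 1.33 in control and 0.22 in knockdown embryos, for CDK1 3.33 and 2.02, and for BUB3 4.17 and 2.03. WEE1 had 3.46 and 3.53, and PLK4 1.34 and 1.36, which lay within 0.1 of each other only as deposited. After rescaling WEE1 had 4.00 and 3.52, and PLK4 1.87 and 1.35.

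A grouping that uses a separate table is the level in control at 2 hpf, in ranges chosen after the values were seen. Of the 11 members at 50 RPKM or more, 9 had a log2 ratio above 0 at 6 hpf (median 0.76), beside 76.4% of 2087 genes in the same range (median 0.38). After rescaling these were 7 of 11 (median 0.44), beside 55.4% (median 0.07). Of the 13 members under 5 RPKM, 4 lay above 0 (median -0.29), and 3 after rescaling (median -0.59). They are not set beside other genes of that range, since some of those entered the comparison only through their level at 6 hpf. The 12 members from 5 to 20 RPKM and the 16 from 20 to 50 RPKM had medians of -0.05 and -0.03 (-0.35 and -0.34 after rescaling), where all genes of those ranges had 0.31 and 0.38 (0.04 and 0.08).

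Division genes outside the symbol rule were read from lists of the same machinery. Their counts stand beside 8.72% of all genes higher and 7.87% lower at 6 hpf. After rescaling these were 591 and 1883 of 16217 genes. At 2 hpf 0.506% of all genes were higher. Of 13 kinetochore and chromosomal passenger genes, 1 had risen at 6 hpf (dsn1, of the MIS12 complex, 46.0 and 101 RPKM) and 1 had fallen (knl1, the scaffold that holds BUB1 and BUB3, 20.6 and 8.47 RPKM), with a median log2 ratio of 0.29 (-0.02 after rescaling). Rescaling took dsn1 below 2-fold (0.81) and NSL1, also of the MIS12 complex, past it (-1.19), which gave 0 higher and 2 lower. At 2 hpf knl1 was the one that rose, from 3.44 to 8.18 RPKM. Of 8 further genes of the anaphase-promoting complex and its regulators, UBE2S, which extends ubiquitin chains, fell at 6 hpf from 52.8 to 21.8 RPKM, and TRIP13, which takes the checkpoint signal apart, rose at 2 hpf from 6.46 to 14.1 RPKM and had 5.79 and 2.88 RPKM at 6 hpf (log2 ratio -0.81, past 2-fold at -1.04 after rescaling). Of 13 cohesin and condensin genes, pttg1, the securin gene, was past 2-fold higher at 6 hpf with 17.4 and 43.0 RPKM and none fell (median 0.04). After rescaling pttg1 was short of 2-fold (0.95). The 13 then had 11 ratios below 0 (median -0.27), from 6 as deposited, beside 8566 of 16217 genes after rescaling.

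Of 13 further genes of mitotic entry, WEE2, a WEE1 relative known from mouse and frog oocytes, had 293 and 285 RPKM at 2 hpf and was the one that rose at 6 hpf (28.3 and 82.1 RPKM), and none fell (median 0.17). After rescaling WEE2 was still past 2-fold (1.19), LIN52, a subunit of the DREAM complex, was past it in the lower direction (-1.04), and the median was -0.08. In poly(A) RNA at 2 hpf WEE2 had the higher level of that kinase pair and WEE1 the lower. In the list of CDK inhibitors, RB and E2F genes 13 were measured and none passed 2-fold between the arms at either age, with the inhibitor genes cdkn1a at 13.3 and 12.8 RPKM and cdkn1ca at 43.0 and 41.5 RPKM at 6 hpf (median of the list -0.05). After rescaling the median was -0.34 and e2f2, a transcription factor gene of replication, was past 2-fold lower (-1.20, from -0.92). The share of all genes past 2-fold at 6 hpf was 16.6% in both directions together.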

How the data were processed

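Per the labels' protocols, whole-embryo poly(A) RNA was made into stranded libraries. Reads were handled with HISAT2 2.0.5, SAMtools 1.9, cutadapt 1.13 and Trimmomatic 0.36 on the build Zv9, per the submitters' processing notes. What counted the reads, with which annotation, and how 2 libraries became 1 value is not given in the sources used here. RPKM values came in 4 deposited tables without headers, matched to groups by the arm and age in their names. RPKM depends on the reads of the whole library, so features that take many reads lower the rest.

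Tables were joined by identifier, and symbols came from a name table that matched 21939 of 33737 identifiers. Ratios used a pseudocount of 1 RPKM. Read worth was taken from genes under 0.3 RPKM. Named genes were members at 2-fold between the arms, the highest and lowest of each role at 6 hpf, and a fixed list; the other members are given because the set is small. Members and lists were chosen with earlier results of these data known. Median-ratio and quantile scaling, pseudocounts of 0.1 and 5 RPKM, and no filter or one of 5 RPKM were the alternatives. The counting of 2-fold calls was tested on simulated data with planted changes larger than 2-fold. This checks the counting only and cannot tell how many calls in the real data are false. Python 3.11.15, numpy 2.4.6 and pandas 2.3.3 were used. No sequence or coordinate is given.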

Additional observations from a re-analysis of the deposited data

Results flagged for a closer look

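The transcript of cenpe differed between the arms in opposite directions at the 2 ages, with a log2 ratio of knockdown to control of 1.82 at 2 hpf and -1.83 at 6 hpf. The difference between the ages was not tested, since each group has 1 value. No group was large enough for a search for single samples far from the rest.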

How the results depend on the processing

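No paired analysis was possible because each table holds 1 value for both libraries of a group, and for the same reason leaving out a replicate and the limma fit could not be run. A pseudocount of 5 RPKM left 0 members lower at 2 hpf, 1 higher at 6 hpf and 10 that rose over time in knockdown embryos. A filter of 5 RPKM also left 0 lower at 2 hpf, because cenpu drops out. Rescaling by the median ratio left 1 higher at 6 hpf and 7 that fell over time in control embryos, and brought the median log2 ratio of the members to 0.073 at 2 hpf, -0.31 at 6 hpf and 0.63 over time in control embryos. Quantile normalization left 1 higher at 6 hpf and 8 that fell over time in knockdown embryos, with medians of -0.12 at 6 hpf, 0.22 over time in control and 0.13 over time in knockdown embryos. The other counts of members stayed within 1.5 times and the other medians within 0.1. Among 29 named members in 4 comparisons, or 116 ratios, 5 crossed 2-fold after rescaling, 6 after quantile normalization, 3 with a pseudocount of 0.1 RPKM and 7 with 5 RPKM, and no ratio past 2-fold changed sign.

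Over all genes the counts higher and lower at 2 hpf were 82 and 153, but 287 and 582 with 0.1 RPKM, 33 and 19 with 5 RPKM, 132 and 105 after rescaling, 129 and 93 with quantile normalization, and 65 and 96 with the 5 RPKM filter. At 6 hpf they were 2875 and 1925, 459 and 539, 591 and 1883, 1039 and 1498, and 1239 and 878 in that order. Over time a pseudocount of 5 RPKM gave 2374 rises and 2641 falls in control and 2119 and 1194 in knockdown embryos. Rescaling gave 5745 and 3040 in control, against 4453 and 4547, and quantile normalization gave 3216 and 3214 in knockdown embryos, against 4132 and 2107. Counting error at 5 RPKM is small beside 2-fold at the read worth given above, which leaves out genes where 1 read is worth more. Some values behind 2-fold ratios lie under 5 RPKM, such as cenpu in both arms and cenpe in control at 2 hpf. Replicate error is unknown.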

Other observations

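At 2 hpf 0.506% of all genes were past 2-fold higher in the knockdown, and at 6 hpf 7.87% were lower. Of the 16217 genes compared, 3 had risen in the knockdown at 2 hpf and fallen at 6 hpf, comparisons that share no table. These were cenpe, knl1 and akap9, and they were chosen after their values were seen. The scaffold gene akap9, whose protein sits at the centrosome and Golgi apparatus in mammals, stood at 5.73 RPKM (control) against 13.0 RPKM (knockdown) at the earlier age and at 4.91 against 1.43 RPKM at the later. Its log2 ratios were 1.06 and -1.28, and those of knl1 were 1.05 and -1.19. The reverse pattern was seen in 7 genes, none of them a member, beside 0.943% of all genes lower at 2 hpf and 8.72% higher at 6 hpf. Among the 7 was NEIL1, a DNA repair glycosylase gene, at 11.2 against 4.07 RPKM early and 10.3 against 23.4 RPKM late. Whether 3 or 7 genes differ from what these shares give together was not tested.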
